A study of Mus musculus with 6 samples.

Results

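The response of the liver transcriptome to JT003 was set side by side in 2 mouse models of liver injury, a high-fat diet and repeated carbon tetrachloride (CCl4). For each gene the log2 ratio of the JT003-treated over the untreated injured liver was computed in the diet model and, separately, in the CCl4 model, with no library shared between the 2 ratios. Genes entered with at least 10 estimated counts in at least 1 of these 4 libraries, which left 14110 of the 18444 genes listed in the series. Of the 14110 genes, 9245 reached 100 counts in each model's higher library, and only these could be named for their rank.

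JT003 is a peptide that activates both adiponectin receptors, AdipoR1 and AdipoR2, and the series holds 6 liver libraries, 1 for each condition, from male mice labelled C57BL/6. The labelled age of 6 to 8 weeks is, by the study's methods, that at which mice were taken into the experiments. In the diet model the groups were SD (chow), HFD (high-fat diet for 16 weeks, labelled as non-alcoholic steatohepatitis, NASH) and HFD plus JT003 (the same diet with JT003 for 4 weeks). In the CCl4 model they were corn oil (the solvent alone), CCl4 (injected every 3 days for 6 weeks, labelled as liver fibrosis) and CCl4 plus JT003 (the same injections with JT003 for 3 weeks). JT003 was injected into the peritoneum at 500 µg per kg daily, and mice were fasted for 8 hours before the liver was taken. The labels do not say whether a library came from 1 mouse or a pool, whether a methionine- and choline-deficient diet was added in the diet model, or at what hour livers were taken. A ratio here compares 1 library with 1 other, so it has no replicate check, and model, length of treatment and batch of mice cannot be told apart.

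Adiponectin, secreted by fat cells, signals through AdipoR1 mainly to AMP-activated protein kinase (AMPK) and through AdipoR2 mainly to PPARalpha, the nuclear receptor that turns on fatty acid oxidation. A fat-loaded liver meets lipid stress, with an unfolded protein response in the endoplasmic reticulum. CCl4 is turned into a radical by cytochrome P450 in hepatocytes around the central vein, and each dose kills these cells, so surviving hepatocytes divide to replace them and stellate cells deposit collagen.

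A gene was called where its log2 ratio was at least 1 in size, a 2-fold difference, and its 95% Clopper-Pearson interval, which covers counting error only, excluded 0. In the diet model 296 genes were called higher with JT003 (2.10%) and 275 lower (1.95%). The CCl4 model gave 588 called higher (4.17%) and 570 lower (4.04%). Of the genes called higher in the diet model, 59 were also higher in the CCl4 model, which was 19.9% of the diet list and 10.03% of the CCl4 list. Among the genes called lower in the diet model, 53 were also lower in the CCl4 model, 19.3% of the diet list and 9.30% of the CCl4 list. Opposite calls were fewer, with 27 genes higher in the diet model and lower in the CCl4 model (9.12% of the diet list) and 22 genes the other way round (8.0%). All 4 of these shares stood above the CCl4 model's background. Among the 9245 better counted genes the same crossing gave 18 genes higher in both, 19 lower in both, 3 higher in the diet model and lower in the CCl4 model, and 8 the reverse. Here 23.7% and 22.9% of the diet lists were shared in the same direction and 3.95% and 9.64% in the opposite one, where the CCl4 background was 1.99% higher and 1.89% lower.

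A gene was put in the class of 1 model only where the other model's log2 ratio was under 0.5 in size and the interval of the difference excluded 0. The diet model held 66 such genes higher and 74 lower. In the CCl4 model they numbered 242 higher and 247 lower. The remaining 778 called genes lay between these classes, and 12542 genes were called in neither model. Where a pair of counts or ratios is given without group names, counts are untreated before JT003-treated and ratios are diet model before CCl4 model, unless stated. Across the 14110 genes the 2 log2 ratios had a Pearson correlation of 0.10 and a Spearman correlation of 0.15, and 55.5% of genes had the same sign in both. Among the 9245 better counted genes Pearson's r was 0.20, and 56.1% had the same sign. Both are descriptions across genes, which are not independent replicates. The spread of the ratios was wider in the CCl4 model (SD 0.46) than in the diet model (SD 0.34) over these 9245 genes.

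**Figure D1:**
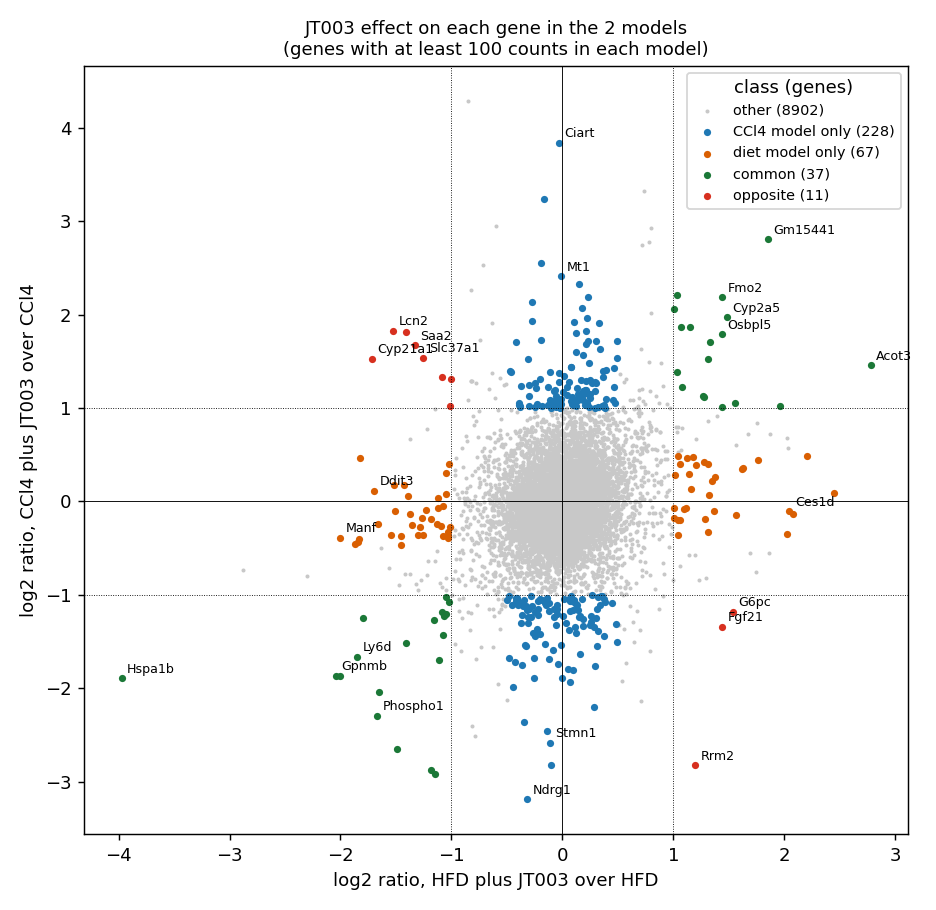
Each point is a gene that reached 100 counts in each model; the x axis is the log2 ratio of HFD plus JT003 over HFD, the y axis that of CCl4 plus JT003 over CCl4, and the dotted lines mark 2-fold. Most called genes lie along 1 axis (228 for CCl4 only and 67 for diet only), with 37 common genes in the corners of equal sign and 11 in the corners of opposite sign.

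Total counts were between 19374236 and 20184557 a library, and albumin took between 5.29% and 7.62% of them. None of the 10 hepatocyte markers was at 0 or was called in either model. A second column of CCl4 counts was pooled over several livers. Its total was 2.97 times that of the CCl4 library, which was taken to be part of it, though this is not stated. The library's counts were subtracted, and the CCl4 library was compared with this rest of the pool, both without JT003. Of 17858 genes, 14 had fewer pooled counts than the CCl4 library. By the same rule, 541 of 14096 genes (3.84%) differed between these, against 8.21% between CCl4 and CCl4 plus JT003. The 2 shares are not alike. The rest of the pool held 39780617 counts against 20156841 in the CCl4 library, while the second share sets 1 library against 1. Of these 541 genes, 451 were higher in the rest of the pool. The median of the 6 red blood cell genes was 2.60 higher there on the log2 scale, that of the 8 neutrophil genes 1.77 and that of the 18 macrophage genes 0.79, and the part of cell content in the choice of comparator was not tested. Which livers were pooled is not stated. With the pooled counts as comparator, 1001 of 14096 genes (7.10%) were called with JT003 in the CCl4 model, higher or lower, which is the background for list counts given with the pool. Values with the pooled counts are given for many results whose call, class or direction they change, or whose called value moves by over 1.5 times. They are not given for every gene, so a result without one may also move.

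**Figure D2:**
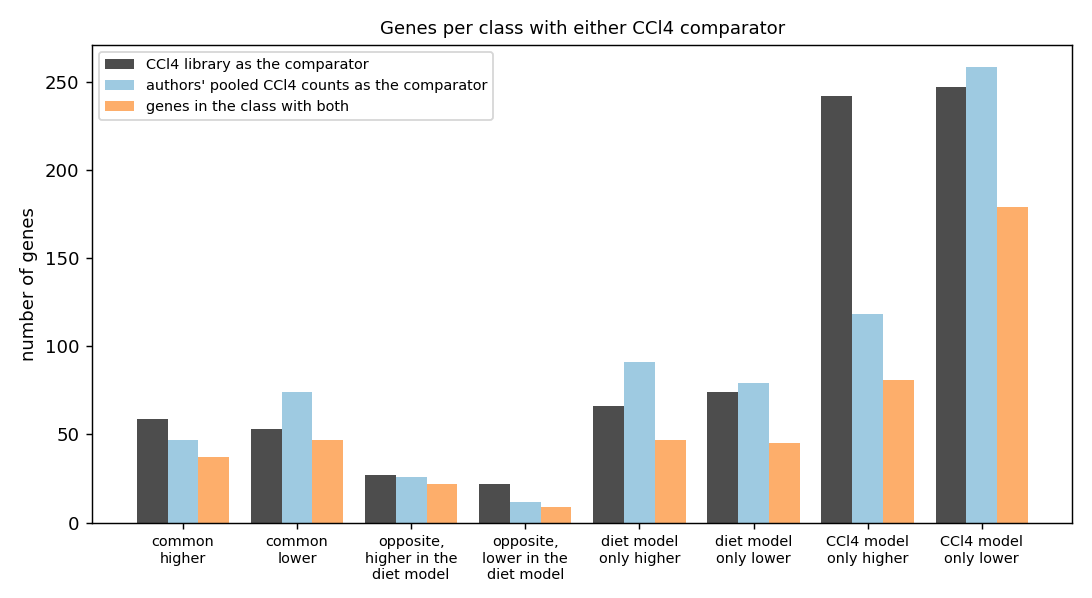
Bars give the number of genes in each class with the CCl4 library as comparator, with the authors' pooled CCl4 counts as comparator, and in the class with both. With both comparators 47 of 53 common lower genes remained, but 81 of 242 genes higher in the CCl4 model only and 9 of 22 opposite genes that were lower in the diet model.

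Genes lower with JT003 in both models included fibrillar collagens, markers of lipid-laden macrophages and inducible heat shock proteins. Of the 29 genes of extracellular matrix and myofibroblasts, 10 were called lower in the diet model and 8 in the CCl4 model, none higher, and the list's median log2 ratio was -0.75 and -0.65, where the median of all genes was -0.0044 and -0.0048. With the pooled CCl4 counts 13 of the 29 were called lower in the CCl4 model (median -0.89), where 7.10% of all genes were called in either direction. Col1a1, a chain of type I collagen, had 899 counts in HFD and 343 in HFD plus JT003, and 2483 in CCl4 and 876 with JT003 added, against 178 in SD and 231 in corn oil. Its log2 ratios were -1.41 (-1.60 to -1.23) and -1.51 (-1.63 to -1.40). In both models the JT003 library lay between the untreated injured liver and the uninjured control. Col1a2, the partner chain, had 794 and 383 counts in the diet model and 2051 and 882 in the CCl4 model, log2 ratios of -1.07 and -1.23. Acta2, the smooth muscle actin of myofibroblasts, had log2 ratios of -1.23 and -1.24 at low counts (35 and 14, then 108 and 45), and in corn oil it had 165 counts, above the CCl4 library. Eln, elastin, was also in the class, at -1.06 and -1.20.

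The matrix list was not uniform between models. Ctgf, a growth factor that promotes matrix synthesis, had 286 counts in HFD and 107 in HFD plus JT003, but 219 and 250 in the CCl4 model. Its difference between the models was 1.60 (1.20 to 2.03), which placed it among genes lower in the diet model only. The basement membrane proteins Nid1 and Nid2 went the other way, with log2 ratios of -0.37 and -0.26 in the diet model and -1.30 and -1.85 in the CCl4 model. Of the 9 markers of quiescent or pan stellate cells, none was called in either model, and their summed level was 351 and 354 CPM (counts scaled to library size) in HFD and HFD plus JT003, and 171 and 185 in CCl4 and CCl4 plus JT003. None of these 9 was at 0. In bulk liver, fewer cells of a type and less RNA per cell cannot be told apart.

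Mmp12, macrophage metalloelastase, had 156 counts in HFD and 38 in HFD plus JT003, and 175 in CCl4 and 47 in CCl4 plus JT003, against 9 in SD and 0 in corn oil. Gpnmb, a glycoprotein of lipid-associated macrophages, had 144 and 34 counts in the diet model and 843 and 232 in the CCl4 model, against 33 and 14 in the controls. Their log2 ratios were -2.004 and -1.86 for Mmp12 and -2.04 and -1.86 for Gpnmb, and the differences between models, 0.14 (-0.54 to 0.84) and 0.18 (-0.36 to 0.79), had intervals that included 0. Trem2, a lipid receptor of the same macrophages, was called in the diet model (53 and 19 counts) and stood at -0.88 in the CCl4 model (193 and 105 counts), or -1.40 with the pool. Of the 18 genes of the whole macrophage and Kupffer cell list, 2 were called lower in the diet model, and 1 lower and 2 higher in the CCl4 model, with medians of 0.33 and 0.23. With the pooled CCl4 counts 2 were called lower and none higher in the CCl4 model, and the median turned to -0.30. Its summed level was 550 and 689 CPM in HFD and HFD plus JT003 and 449 and 526 in CCl4 and CCl4 plus JT003. Marco, a scavenger receptor of Kupffer cells, had 161 and 1252 counts in the CCl4 model, and its log2 ratio of 2.93 became 0.82 against the pooled CCl4 counts.

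Most heat shock genes were lower with JT003 in the diet model, and the inducible pair Hspa1a and Hspa1b in both. Of 10 genes, 7 were called lower in the diet model and these 2 in the CCl4 model, with medians of -1.25 and -0.45. Hspa1b, an inducible Hsp70 chaperone, had 3258 counts in HFD and 209 in HFD plus JT003, and 921 in CCl4 and 249 in CCl4 plus JT003, against 2320 in SD and 531 in corn oil. Its log2 ratios were -3.97 (-4.19 to -3.78) and -1.89 (-2.11 to -1.69). The low libraries were those with JT003, since SD held nearly as many counts as HFD. Hspa1a, a near-identical copy whose reads could be split with Hspa1b, gave -4.69 and -1.48. Dnajb1 and Hsp90aa1, a co-chaperone and a chaperone, were in the class of the diet model only, with -1.46 against -0.37 and -1.03 against -0.33. The heat shock element core GAANNTTC, searched on both strands, was present in the 300-base promoter window (250 bases before to 50 after the start) of 7 of 8 heat shock genes with a RefSeq promoter, and in 7.03% of the 11160 genes compared that had one. The 250 bases before the start of Hspa1b in RefSeq, build GRCm38.p6, are shown because it led the genes lower in both models, with the core in capitals, starting 104 bases before the start.
Hspa1b, chr17:34959239-34959488, minus strand: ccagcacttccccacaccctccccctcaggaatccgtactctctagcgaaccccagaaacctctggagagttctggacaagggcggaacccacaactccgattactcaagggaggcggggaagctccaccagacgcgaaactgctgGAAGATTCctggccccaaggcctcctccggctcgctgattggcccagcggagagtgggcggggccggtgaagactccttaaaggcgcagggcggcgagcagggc

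Among other genes lower in both, Cdkn1a, the cell cycle inhibitor p21, had 295 and 94 counts in the diet model and 3208 and 783 in the CCl4 model, log2 ratios of -1.65 and -2.04. Phospho1, a phosphatase known from bone mineralisation, stood at -1.67 and -2.29, and Ly6d, a surface protein of epithelial cells, at -1.85 and -1.66. Bcl6, a transcriptional repressor, had 1281 and 585 counts in the diet model and 1260 and 166 in the CCl4 model. Elovl3, a fatty acid elongase, Cidec, a lipid droplet protein, and Phospho1 were lower in both models but also lower in each untreated injured liver than in its control. In the diet model this also held for Cdkn1a, which had 828 counts in SD. With the pool Cidec stood at -0.93 in the CCl4 model, outside the call. Elovl3 had 2775 counts in HFD, 1239 with JT003 and 14013 in SD. In the CCl4 model it had 731 counts without JT003, 99 with it, and 8783 in corn oil. Here the JT003 library was the one farthest from the uninjured control.

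The common higher class held 59 genes, of which 18 had 100 counts or more in each model. Acot3, an acyl-CoA thioesterase of peroxisomes, had 192 counts in HFD and 1350 in HFD plus JT003, and 927 in CCl4 and 2573 in CCl4 plus JT003. The log2 ratio was larger in the diet model, 2.78 (2.57 to 3.02) against 1.46 (1.35 to 1.57), but with the pooled CCl4 counts Acot3 stood at 2.35. Cyp2a5, a cytochrome P450 that oxidises coumarin, had 6101 and 17345 counts in the diet model and 1108 and 4386 in the CCl4 model, ratios of 1.48 and 1.97. Both genes have close copies (Acot1 and Acot4, Cyp2a4) with which reads could be split. Cyp2a4 itself had 943 counts in CCl4 and 231 in CCl4 plus JT003, so the 2 copies lay in opposite directions there, and Cyp2a4 was at -0.85 with the pool, outside the call.

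Fmo2, a flavin monooxygenase, had 138 and 384 counts in the diet model and 107 and 499 in the CCl4 model. Osbpl5, an oxysterol-binding protein that moves lipid at membrane contacts, had 76 and 213 counts, then 33 and 120. Gm15441, a long non-coding RNA antisense to Txnip, had 95 and 354 counts in the diet model and 190 and 1350 in the CCl4 model, but 5570 in SD and 723 in corn oil. Txnip, the thioredoxin inhibitor on the other strand, had log2 ratios of 1.06 and -0.69. Whether counting used strand is not stated, so reads of this pair could not be told apart. Among lower-ranked genes of the class, Cyp7a1, the rate-limiting enzyme of bile acid synthesis, had 781 and 2160 counts in the diet model and 605 and 1233 in the CCl4 model. Hamp, the iron-regulating hormone hepcidin, had 3388 and 8642, then 8132 and 26719, and Nampt, an enzyme of NAD synthesis, had 1434 and 2928, then 547 and 2297. The common higher class leaned more on the single CCl4 library: 37 of its 59 genes stayed in it with the pooled counts, and 22 of the 59 differed between that library and the rest of the pool.

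**Figure D3:**
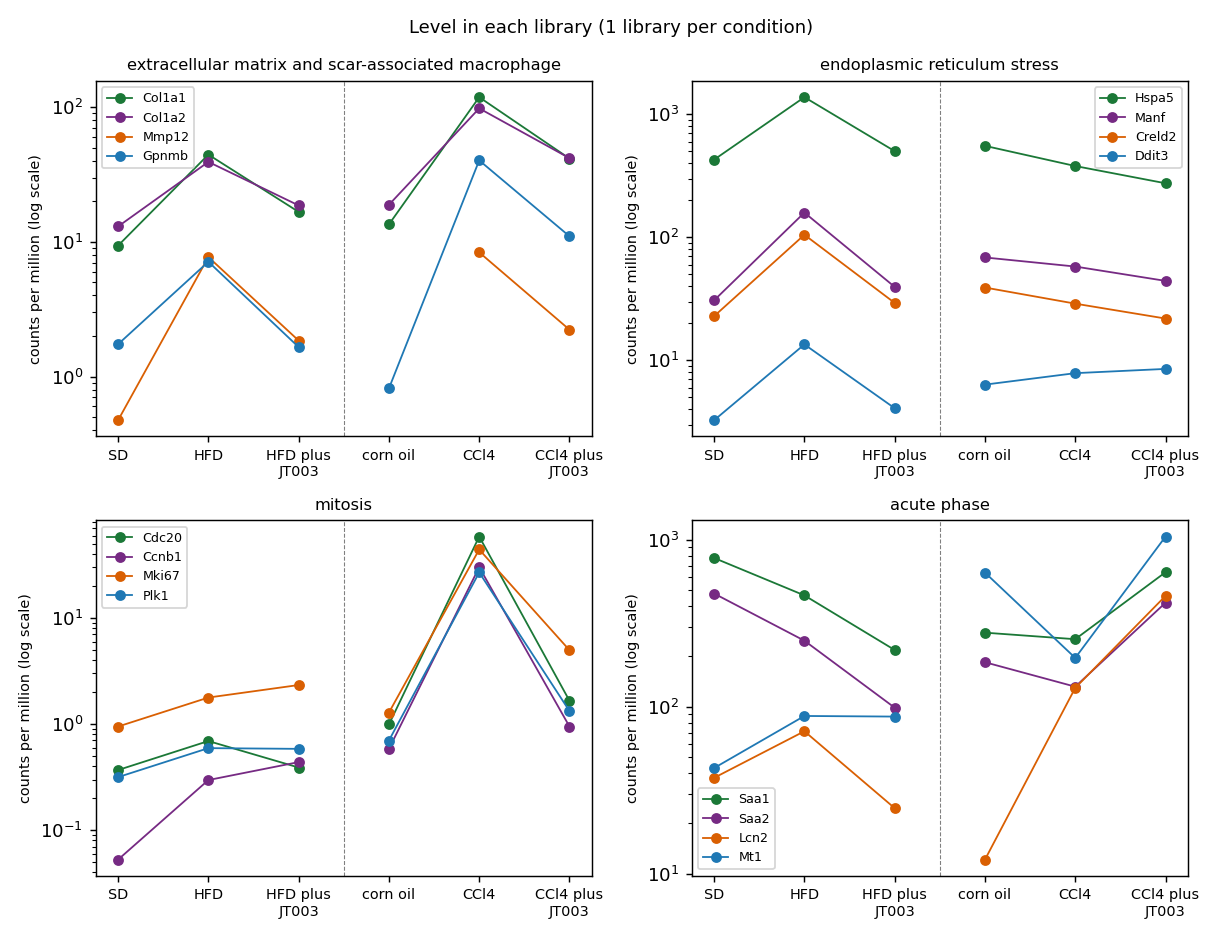
Level of 4 genes for each of 4 groups, in CPM (counts scaled to the TMM size of the library) on a log axis, with 1 point per library and lines joining libraries of a model; a library at 0 (Mmp12 in corn oil) has no point. The collagens Col1a1 and Col1a2 and the macrophage genes Mmp12 and Gpnmb are lower with JT003 in both models. The whole list of 18 macrophage genes is not, with medians of 0.33 and 0.23. The endoplasmic reticulum genes shown are lower mainly in the diet model, and the mitosis genes are called lower only in the CCl4 model. The acute phase genes shown (except Mt1 in the diet model) lie lower in the diet model and higher in the CCl4 model.

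With the single CCl4 library as comparator, chaperones of the endoplasmic reticulum were lower with JT003 mainly in the diet model. Of the 25 genes for chaperones and degradation, 7 were called lower in the diet model and 1 in the CCl4 model, with medians of -0.60 and -0.24. Hspa5, the master chaperone BiP, had 27926 counts in HFD and 10330 in HFD plus JT003, and 7967 in CCl4 and 5811 in CCl4 plus JT003, against 8141 in SD and 9516 in corn oil. Its log2 ratios were -1.46 (-1.49 to -1.42) and -0.47 (-0.52 to -0.42). HFD was the only library in which it stood well above the others, and the CCl4 library was below corn oil. Manf, a secreted stress factor, had 3219 and 814 counts in the diet model and 1214 and 935 in the CCl4 model, a difference between the models of 1.62 (1.45 to 1.78). Creld2, a protein of the endoplasmic reticulum lumen, had 2126 and 603, then 606 and 462. Sdf2l1, a BiP cofactor, and Syvn1, the ubiquitin ligase Hrd1 of protein degradation, had log2 ratios of -1.87 and -1.66 in the diet model and -0.46 and -0.24 in the CCl4 model. Derl3, a degradation factor, was the member lower in both (497 and 225, then 66 and 23 counts).

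With the pooled CCl4 counts, 5 of these 25 genes were called lower in the CCl4 model and the median was -0.58, close to that of the diet model, and Hspa5 stood at -1.08, Sdf2l1 at -1.09, Manf at -0.998, Creld2 at -0.79 and Syvn1 at -0.58. Their place in the class of the diet model only thus rested on the single CCl4 library, in which the list's median was 0.44 below the rest of the pool. Ddit3, the stress-induced factor CHOP, had 273 and 84 counts in the diet model and 165 and 180 in the CCl4 model, log2 ratios of -1.70 and 0.11, and -0.51 with the pool.

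The ER stress response element, CCAAT and CCACG with 9 bases between, was searched on both strands in the 300-base promoter windows. It was present in 9 of 21 list genes with a RefSeq promoter and in 21 of the 11160 genes (0.188%). The 250 bases before the start are printed for 3 genes lower in the diet model only and for Derl3, lower in both, with the element in capitals. No RefSeq promoter was at hand for Manf.
Hspa5, chr2:34771840-34772089, plus strand: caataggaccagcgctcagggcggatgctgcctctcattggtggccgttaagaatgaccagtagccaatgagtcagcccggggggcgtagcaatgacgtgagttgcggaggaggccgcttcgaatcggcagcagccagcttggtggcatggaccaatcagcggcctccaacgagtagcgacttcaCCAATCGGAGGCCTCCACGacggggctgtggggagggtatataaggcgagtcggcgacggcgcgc
Creld2, chr15:88819396-88819645, plus strand: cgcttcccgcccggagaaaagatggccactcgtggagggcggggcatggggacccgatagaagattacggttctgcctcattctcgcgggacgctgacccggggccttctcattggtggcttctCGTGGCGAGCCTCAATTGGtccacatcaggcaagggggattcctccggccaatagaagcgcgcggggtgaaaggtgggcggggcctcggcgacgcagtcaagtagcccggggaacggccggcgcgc
Syvn1, chr19:6046326-6046575, plus strand: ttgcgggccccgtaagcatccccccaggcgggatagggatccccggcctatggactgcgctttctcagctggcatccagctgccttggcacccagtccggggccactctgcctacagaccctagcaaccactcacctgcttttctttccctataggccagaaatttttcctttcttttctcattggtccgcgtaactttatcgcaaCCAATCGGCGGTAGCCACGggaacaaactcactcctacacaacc
Derl3, chr10:75893148-75893397, plus strand: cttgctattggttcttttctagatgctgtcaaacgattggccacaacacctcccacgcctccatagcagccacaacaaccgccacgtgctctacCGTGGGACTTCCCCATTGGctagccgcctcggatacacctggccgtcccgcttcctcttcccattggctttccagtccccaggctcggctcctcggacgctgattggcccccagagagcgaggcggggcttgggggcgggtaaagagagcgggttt
The element lay 65 bases before the start in Hspa5, 126 in Creld2, 44 in Syvn1 and 156 in Derl3, counted from its left end. It is on the strand shown in Hspa5 and Syvn1 and on the other strand in Creld2 and Derl3. A second motif searched, the unfolded protein response element core TGACGTGG, was in 0 of the 21 list genes and in 0.99% of the 11160 genes. A match describes these letters and was not tested as a site.

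PPARalpha targets moved mainly in the diet model. Of 24 genes, 7 were called higher there and none lower, while 1 was higher and 1 lower in the CCl4 model, and the medians were 0.41 and -0.10. With the pooled CCl4 counts 2 were called higher and none lower, and the median turned to 0.09. In the rest of the pool the list's median log2 ratio to the CCl4 library was -0.56, so the size of the contrast rested in part on that library. Cyp4a10, an omega-hydroxylase of fatty acids, had 9592 counts in HFD and 30161 in HFD plus JT003, and 35965 in CCl4 and 46548 in CCl4 plus JT003. SD held 84554 counts and corn oil 71264, so HFD was the library farthest below its control. Its log2 ratios were 1.63 and 0.36, and 0.84 with the pool, while the pool placed the related Cyp4a14 at 1.01. Ehhadh, a peroxisomal enzyme of fatty acid oxidation, had 6754 and 15107 counts in the diet model, but 38856 and 26293 in the CCl4 model. Its log2 ratios were 1.14 and -0.57, and -0.18 in the CCl4 model with the pool. Acot1 and Acot4, thioesterases, were higher in the diet model only (1.37 and 1.62, against 0.26 and 0.35), but with the pool they stood at 0.96 and 0.85 in the CCl4 model, outside that class. The genes Cyp4a10, Cyp4a31 and Cyp4a32 belong to the same family, and reads could be split among its close copies. Cyp4a32 was called in neither model (0.38 and -0.06). Plin2, which coats lipid droplets, was the target lower in the CCl4 model only, with 30237 and 12937 counts against 15017 and 12516 in the diet model. Its log2 ratio of -1.24 became -0.85 with the pool, outside the call.

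Cholesterol synthesis went different ways in the models. Of 23 genes, 4 were called higher in the diet model and none lower, and 1 was called lower in the CCl4 model, with medians of 0.41 and -0.33. The sign differed between models for 18 of the 23. Sqle, squalene epoxidase, had 116 and 244 counts in the diet model and 561 and 439 in the CCl4 model. Idi1, an isomerase of the isoprenoid path, had log2 ratios of 1.10 and -0.08. With the pool Sqle stood at -0.93 and Idi1 at -0.55 in the CCl4 model, farther from their diet ratios. Nsdhl, a later enzyme of the path, was the gene called lower in the CCl4 model (-1.29), and its log2 ratio was 0.64 in the diet model. Some genes of fatty acid synthesis and storage were lower in the CCl4 model. Acly, ATP citrate lyase, had 2621 and 1006 counts there and 1694 and 2154 in the diet model, and Fasn, fatty acid synthase, had log2 ratios of -1.51 and 0.65 in the CCl4 and the diet model. Of the 18 genes of that list, 4 were called lower in the CCl4 model and 2 in the diet model, with medians of -0.05 in the diet model and -0.71 in the CCl4 model. With the pool 3 were called lower in the CCl4 model, and the median was -0.37. The 2 in the diet model were the lipid droplet genes Cidec and Cidea, and Cidea had 386 counts in HFD and 18 in HFD plus JT003.

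By rank, the genes higher in the diet model only were led by Igfbp5, Tmem254c, Lonrf3, Ces1d and Gm4070. Ces1d, a carboxylesterase that hydrolyses triglyceride, had 4958 and 20807 counts in the diet model and 13784 and 12910 in the CCl4 model. Its log2 ratios were 2.05 and -0.11, and 0.35 in the CCl4 model with the pool. Igfbp5, a binding protein of insulin-like growth factors, had 69 and 291 counts, then 213 and 168, and its CCl4 ratio of -0.35 became -0.76 with the pool. Tmem254c and Gm4070 belong to groups of near copies and are uncertain. Those lower in the diet model only were led by Xlr3a, Ddit3, Pfkfb3, Manf and Ctgf. Pfkfb3, which makes the activator of phosphofructokinase, had 1272 and 450 counts in the diet model and 232 and 264 in the CCl4 model. Its CCl4 ratio of 0.17 became -0.10 with the pool.

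**Figure D4:**
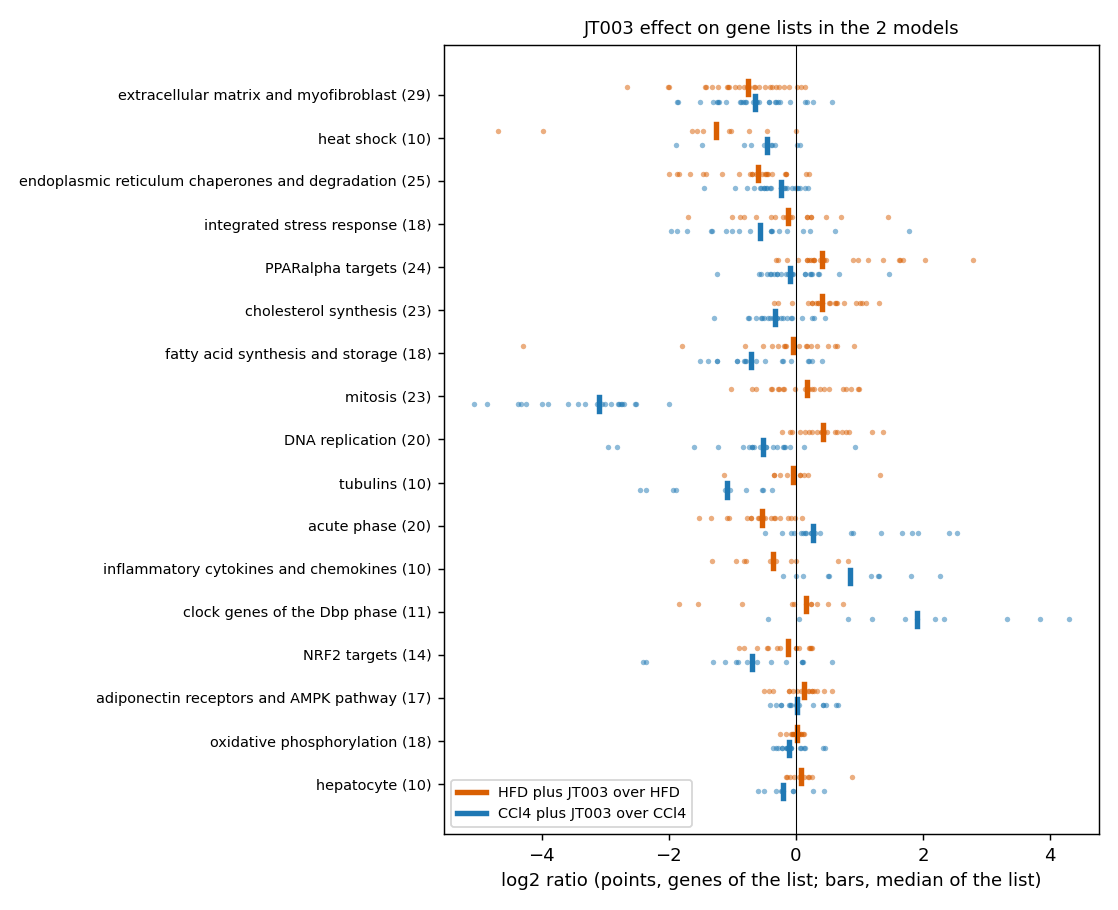
Points are the genes of each list, with the number measured in brackets, and thick bars are list medians; the x axis is the log2 ratio with JT003, orange for the diet model and blue for the CCl4 model. Mitosis has medians of 0.17 in the diet model and -3.09 in the CCl4 model, while the matrix list has medians of -0.75 and -0.65 and oxidative phosphorylation lies near 0 in both.

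Mitosis genes were lower with JT003 in the CCl4 model and were not called in the diet model. All 23 mitosis genes were called lower in the CCl4 model and none was called in the diet model, with medians of 0.17 in the diet model and -3.09 in the CCl4 model, and all 23 were also called with the pooled CCl4 counts (median -2.81). Cdc20, an activator of the anaphase-promoting complex, had 1229 counts in CCl4 and 35 in CCl4 plus JT003, against 14 in HFD and 8 in HFD plus JT003, 7 in SD and 17 in corn oil. Mki67, the proliferation marker Ki-67, had 929 and 105 counts in the CCl4 model and 36 and 48 in the diet model. Ccnb1, cyclin B1, had 632 and 20, against 6 and 9 in the diet model. The CCl4 library alone was high, and the diet model had few counts to lose: its HFD library held 36 counts or fewer of each of these 3 genes. At the 6 counts of Ccnb1 a decrease was hardly detectable there. At the 36 counts of Mki67 a decrease could be called, as that of Acta2 was (35 and 14 counts). Of 20 DNA replication genes, 4 were called lower in the CCl4 model and 2 higher in the diet model. Their medians were 0.42 in the diet model and -0.52 in the CCl4 model. With the pool 5 were called lower in the CCl4 model (median -0.59). Rrm2, a ribonucleotide reductase subunit, was opposite, with 71 and 168 counts in the diet model and 601 and 84 in the CCl4 model, and Tk1, thymidine kinase, had 184 and 486, then 613 and 576.

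Tubulins, the subunits of microtubules, were also called lower mainly in the CCl4 model. Of 10 tubulins, 6 were called lower in the CCl4 model and 1 in the diet model, with medians of -0.04 in the diet model and -1.08 in the CCl4 model, and 4 were called lower there with the pool (median -0.99). Tubb6 had 1387 and 253 counts in the CCl4 model and 187 and 172 in the diet model. Stmn1, stathmin, which destabilises microtubules, had 2032 and 340 in the CCl4 model, against 196 and 184 in the diet model. Tubulin genes resemble each other, and reads could be split among them. The list of genes lower in the CCl4 model only was led by Ndrg1, Rpl14-ps1, Rnf125, Stmn1 and Tubb6. Ndrg1, a stress- and hypoxia-induced protein, had 1862 and 204 counts in the CCl4 model and 197 and 160 in the diet model. Rpl14-ps1 is a pseudogene copy and is uncertain.

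The CHR element TTTGAA, through which cell cycle genes are kept off in resting cells, was searched on both strands. It was present in the promoter window of 13 of 19 mitosis genes with a RefSeq promoter and in 15.0% of the 11160 genes. The 250 bases before the start of Cdc20 are shown, with the element in capitals 18 bases before the start, as the mitosis gene with the lowest ratio.
Cdc20, chr4:118437344-118437593, minus strand: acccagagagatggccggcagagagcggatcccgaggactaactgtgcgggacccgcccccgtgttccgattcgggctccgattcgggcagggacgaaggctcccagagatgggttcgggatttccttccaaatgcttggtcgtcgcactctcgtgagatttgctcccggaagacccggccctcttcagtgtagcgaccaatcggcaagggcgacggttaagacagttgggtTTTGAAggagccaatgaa

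Clock genes that peak with Dbp differed between the models. Of the 11 genes that peak with Dbp, 8 were called higher in the CCl4 model and none lower, while 2 were lower in the diet model and none higher, with medians of 0.15 in the diet model and 1.91 in the CCl4 model. Dbp itself, a transcription factor under direct clock control, had 96 and 1931 counts in the CCl4 model and 1738 and 977 in the diet model. Ciart, a repressor of the clock, had 23 and 359 counts in the CCl4 model and 143 and 142 in the diet model, a difference of 3.87 (3.27 to 4.65). Among the Dbp-phase genes Nr1d1, the repressor REV-ERBalpha, was the exception, lower in the diet model only, with 2342 and 661 counts there and 1695 and 1264 in the CCl4 model. The shift of the Dbp-phase list in the CCl4 model was as large against the pool (median 1.85). Arntl, the clock activator of the other phase, had 386 and 34 counts in the CCl4 model and 46 and 70 in the diet model. Of the 5 genes of that phase, 2 were called lower in the CCl4 model and none higher. In the diet model 1 was called higher and 1 lower, and the medians were 0.56 and -0.79. Npas2, another clock activator, was lower in both models, with 12 and 1 counts, then 179 and 5. The part of time of day in any gene's ratio was not tested. The E-box CACGTG, the clock activator's motif, was present on either strand in the window of 4 of 10 genes of the Dbp phase and in 11.4% of all genes with one. A second motif searched, the D-box TTATGTAA, was in 1 of these 10 genes and in 0.75% of the 11160 genes. The 250 bases before the start of Ciart, with 3 E-boxes in capitals, are shown because it led the genes higher in the CCl4 model only.
Ciart, chr3:95882229-95882478, minus strand: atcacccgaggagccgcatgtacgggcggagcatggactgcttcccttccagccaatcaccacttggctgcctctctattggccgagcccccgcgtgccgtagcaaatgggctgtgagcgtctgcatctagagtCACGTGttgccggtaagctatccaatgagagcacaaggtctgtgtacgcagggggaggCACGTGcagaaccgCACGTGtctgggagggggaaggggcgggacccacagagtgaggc

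After Ciart, the genes higher in the CCl4 model only were Gbp11, Nrep, Mt1 and Socs2. Socs2, a growth hormone-induced repressor, had 295 and 1314 counts in the CCl4 model and 512 and 431 in the diet model, and stood at 2.93 against the pool. Nrep, a protein related to neuronal regeneration, had 115 and 689 counts in the CCl4 model against 710 and 631 in the diet model. Mt1, a metallothionein, had 4102 and 22032 counts in the CCl4 model and 1780 and 1793 in the diet model. Against the pool Mt1 was at 0.37, so the single CCl4 library set its value. Gbp11, an interferon-induced GTPase, had 10 and 112 counts in the CCl4 model and 397 and 360 in the diet model.

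Acute phase genes had opposite directions. Of 20 genes, 4 were called lower in the diet model and none higher, and 6 were called higher in the CCl4 model and none lower, with medians of -0.54 and 0.27. The sign differed for 15 of the 20. Saa2, a serum amyloid, had 5027 and 2027 counts in the diet model and 2759 and 8850 in the CCl4 model, log2 ratios of -1.33 (-1.41 to -1.26) and 1.67 (1.61 to 1.73). Its near copy Saa1, with which reads could be split, had 9390 and 4492, then 5311 and 13479. Lcn2, lipocalin 2, which binds bacterial siderophores, had 1442 and 507, then 2714 and 9725, and Steap4, a metalloreductase, was lower in the diet model only (-1.05 against 0.30). With the pool Steap4 stood at -1.04 in the CCl4 model, about its diet ratio.

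The CCl4 side of this contrast rested on the single CCl4 library. Against the pool the list had 1 gene called higher and 1 lower with a median of -0.25, Saa2 stood at 0.35 and Saa1 at 0.22, and Lcn2 changed sign to -0.41. The CCl4 library's acute phase genes were a median of 0.83 below the rest of the pool. Inflammatory cytokines and chemokines went the same way, with 5 of 10 called higher in the CCl4 model and 1 lower in the diet model, medians of -0.37 in the diet model and 0.86 in the CCl4 model, and 0.09 with 2 called against the pool. Cxcl1, a neutrophil attractant, had 72 and 357 counts in the CCl4 model and 233 and 133 in the diet model, and its CCl4 ratio of 2.27 became 1.02 with the pool. The 8 neutrophil genes measured had medians of -0.51 and 0.55, or -0.42 in the CCl4 model with the pool, and a summed level of 19.5 and 17.6 CPM in the diet model and 20.195 and 25.4 in the CCl4 model. None of these markers was at 0 in all 4 libraries, and their part in the acute phase values was not tested.

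Of the 15 genes for gluconeogenesis, glycogen and insulin response, 1 was called in opposite directions. This was G6pc, the catalytic subunit of glucose-6-phosphatase, which releases glucose from the liver. It had 2934 and 8632 counts in the diet model and 17176 and 7647 in the CCl4 model, against 12625 in SD and 8164 in corn oil. The log2 ratios were 1.53 (1.47 to 1.60) and -1.18 (-1.22 to -1.14), and in each model the JT003 library lay nearer to the control. Fgf21, a fasting hormone of the liver, had 73 and 205 counts in the diet model and 460 and 182 in the CCl4 model, against 691 and 215 in the controls. Igfbp1, an insulin-repressed binding protein, had log2 ratios of 1.29 and -0.82, and -1.95 with the pool. With the pooled counts G6pc was at -0.98 and Fgf21 at -0.87 in the CCl4 model, just inside the 2-fold line. Over the 15 genes the medians were 0.12 and -0.31, and -0.14 with the pool.

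The other opposite genes named by rank were lower in the diet model and higher in the CCl4 model. Noct, a clock-controlled enzyme, had 1101 and 420 counts in the diet model and 353 and 1252 in the CCl4 model, and stood at 1.31 with the pool. Cyp21a1, a steroid 21-hydroxylase, had 627 and 192, then 85 and 251, and 0.67 with the pool. Slc37a1, a sugar-phosphate carrier, had 127 and 53, then 40 and 121, and 0.33 with the pool. Below the rank, Sds, serine dehydratase, an enzyme of amino acid breakdown, had 1926 and 973 counts in the diet model and 3760 and 9397 in the CCl4 model.

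**Figure D5:**
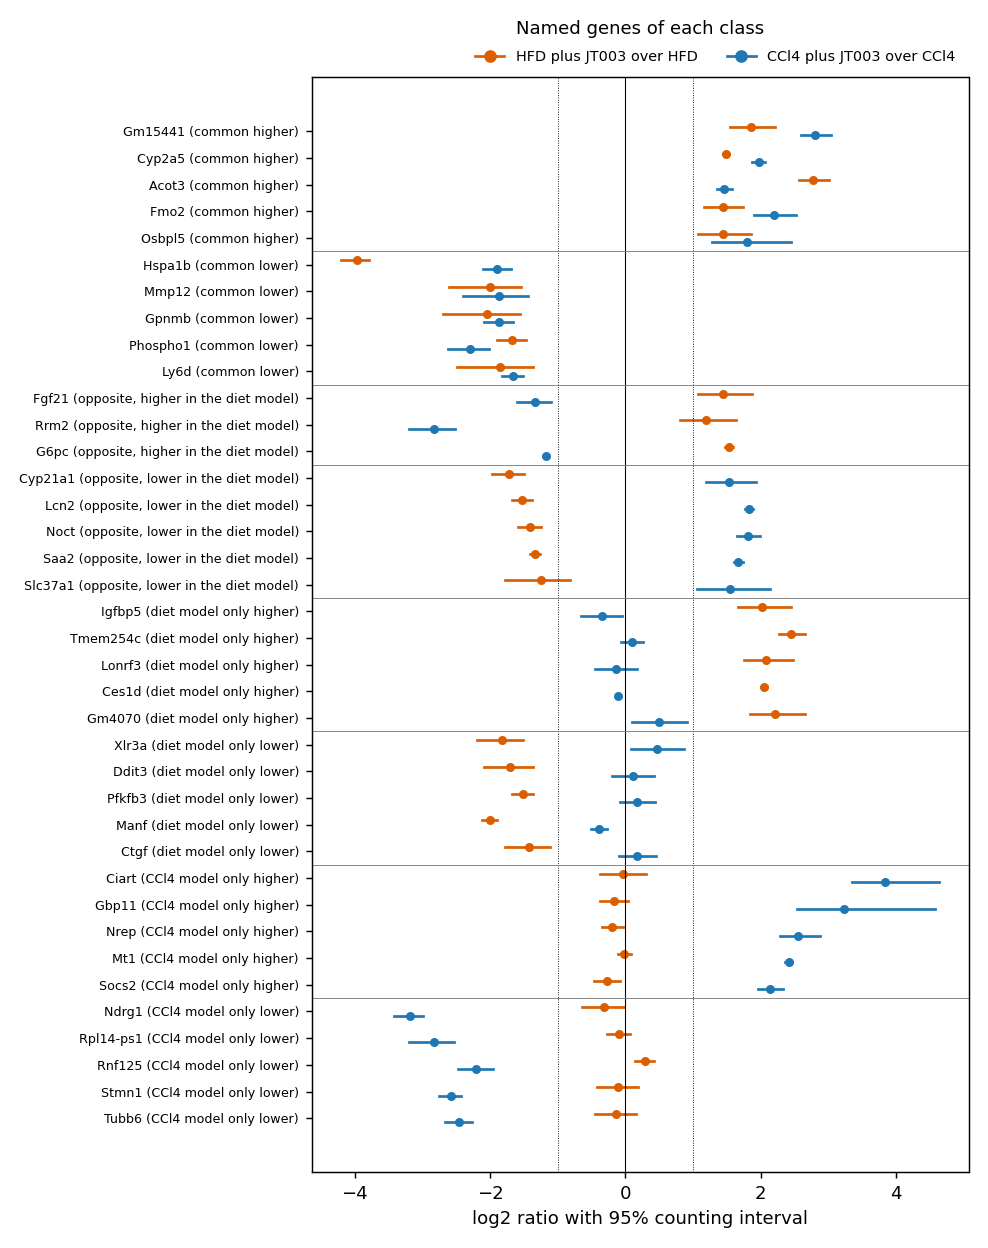
Log2 ratios with 95% Clopper-Pearson intervals, for counting error only, of the genes named by rank in each class, orange for the diet model and blue for the CCl4 model; dotted lines mark 2-fold. Intervals are narrow for well counted genes such as G6pc and wide for Gbp11, which had 10 counts in the CCl4 library.

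The receptors themselves were called in neither model. Adipor1 had 2000 and 2328 counts in the diet model and 2886 and 2348 in the CCl4 model, log2 ratios of 0.20 and -0.31. Adipor2 had 13358 and 10521, then 10236 and 7764, ratios of -0.37 and -0.41, with a difference between models of -0.04 (-0.10 to 0.01). In FPKM, a level per length, Adipor2 stood at 168.74 and Adipor1 at 31.72 in HFD, and at 126.66 and 44.93 in CCl4. None of the 17 measured genes of the receptor and AMPK list was called in either model, with medians of 0.13 and 0.01. The 18 genes of oxidative phosphorylation had none called either, with medians of 0.01 and -0.11, and 0.13 in the CCl4 model with the pool. Over all genes 4.05% were called in the diet model and 8.21% in the CCl4 model. In lists this short the absence of a call is not far from that share.

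The integrated stress response and NRF2 lists had more calls in the CCl4 model than in the diet model. Of 18 genes of the integrated stress response, 6 were called lower in the CCl4 model and 1 in the diet model, with 1 higher in each, and the medians were -0.13 in the diet model and -0.56 in the CCl4 model. With the pool 0 were called higher there, and Chac1 went from 1.77 to 0.83. Asns, asparagine synthetase, had 142 and 35 counts in the CCl4 model and 16 and 28 in the diet model. Of the others called lower in the CCl4 model, HFD held 24 counts of Psat1, 3 of Phgdh, 5 of Slc7a11 and 33 of Nupr1. A decrease of Phgdh and Slc7a11 in the diet model was hardly detectable at this depth. At counts like those of Psat1 and Nupr1 a decrease could be called, as that of Dhrs9 was (24 and 9 counts). Fgf21, also called lower in the CCl4 model, was the gene called higher in the diet model. NRF2 targets, genes of the antioxidant response, had 4 of 14 called lower in the CCl4 model and none in the diet model, with medians of -0.12 in the diet model and -0.69 in the CCl4 model. Gstm3, a glutathione transferase, had 11923 and 2264 counts in the CCl4 model and 242 and 139 in the diet model. Gstm1, a related enzyme, was lower in the CCl4 model only (92895 and 43276 counts, against 17471 and 12991 in the diet model). With the pool its log2 ratio of -1.11 became -0.55, outside the call, and 2 of the 14 genes were called lower.

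How many genes differ between the models depends on the spread between mice, which could not be measured. By counting error alone 1339 genes had a difference of at least 1 with an interval that excluded 0. Where a coefficient of variation of 0.2 between mice was assumed in edgeR's negative binomial model, 187 genes had an adjusted p under 0.05 for the difference, and with 0.4 there were 13. The 187 genes included Rrm2, Dbp, Arntl, Ciart, Lcn2, Noct, Saa2, G6pc, Fgf21 and mitosis genes such as Ccnb1, Plk1 and Mki67. Of the 13, Dbp was a well counted single gene, and H2-Q8, Ugt2a1, Ugt2a2, Hist1h2ao and the Rnu3b copies belong to families of near-identical genes in which estimated counts can jump between copies. The others were Prtn3, Sap25, Mir684-1 and ChkbCpt1b. Prtn3 had 72 and 6 counts in the diet model and 15 and 117 in the CCl4 model, where its log2 ratio of 2.80 became -1.39 with the pool. These assumed values are no test between mice.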

How the data were processed

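Total RNA of mouse liver was sequenced on a BGISEQ-500 instrument, 1 library for each of 6 conditions. The submitters' processing notes name HISAT, Bowtie2, RSEM and the build mm9, with no versions. The deposited library files hold estimated counts per gene (expected counts of RSEM, in which the authors split a read shared by several genes) and FPKM, which the authors scaled to transcript length and library size. A gene at 0 is left out of a deposited file and was set to 0. Between 69.9% and 70.9% of the listed counts were whole numbers, and counts were rounded. Gene symbols are those of the files, and 18403 of 18444 gene IDs were found in the RefSeq gene table of GRCm38.p6.

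Libraries were scaled by TMM (edgeR 4.0.16, R 4.3.3) within the 3 libraries of a model, with factors from 0.88 to 1.09. The log2 ratio took a prior count of 2, and the difference between models is the CCl4 model minus the diet model, with a normal interval on counts with 0.5 added. The analysis was tested on simulated data. No p-value rests on a measured spread between mice, since each condition had 1 library. edgeR with an assumed coefficient of variation, which is no test between mice, gave the counts of genes at an adjusted p under 0.05 (Benjamini-Hochberg).

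Genes were named by rank as follows: in each direction of each class, the 5 genes with the highest score among those that reached 100 counts in each model's higher library, where the score was the smaller of the 2 absolute log2 ratios (common, opposite) or the absolute difference (1 model only). Genes of 40 lists and the 2 receptors were added, and genes below the rank are said to be so. The members and lists were chosen with earlier results of these data known. The 4 deposited comparison tables hold the authors' fold changes and p-values, which were not used, as were 7 expression columns, and 1 column of estimated counts pooled by the authors over CCl4 livers served as a second comparator. The scaling, count filter, prior count, fold threshold, unit (log2 of FPKM plus 1) and CCl4 comparator were varied.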

Additional observations from a re-analysis of the deposited data

Results flagged for a closer look

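Each gene here had its JT003 library on opposite sides of the untreated library in the 2 models, 1 library against 1 in each, and the difference was not tested between mice. As the CCl4 model minus the diet model on the log2 scale, the difference was -2.78 for Fgf21, -4.02 for Rrm2 and -2.71 for G6pc, which were higher with JT003 in the diet model. It was 3.25 for Cyp21a1, 3.36 for Lcn2, 3.22 for Noct, 3.0 for Saa2 and 2.79 for Slc37a1, which were lower with JT003 in the diet model. With the pooled CCl4 counts Rrm2 (-2.86) and Noct (1.31) were still called in the CCl4 model. Fgf21 (-0.87), G6pc (-0.98), Cyp21a1 (0.67), Saa2 (0.35) and Slc37a1 (0.33) had the same sign but were no longer called, and Lcn2 turned to -0.41.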

How the results depend on the processing

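Each condition had 1 library, so no setting tests the spread between mice, and no paired analysis was possible because no group has a second library. Class sizes kept within 1.5 times of those reported under other scalings, without a filter and with a prior count of 0.5, and the sizes that moved by more follow. A minimum of 100 counts gave 27 common higher and 33 common lower genes, 10 opposite genes higher and 11 lower in the diet model, 43 lower in the diet model only and 151 higher in the CCl4 model only. A 1.5-fold threshold gave 210 and 171 common, 77 and 74 opposite, 215 and 267 in the diet model only and 714 and 727 in the CCl4 model only (higher, then lower). Log2 of FPKM plus 1 gave 13 and 14 common, 9 and 10 opposite, 27 and 47 in the diet model only and 99 higher in the CCl4 model only. The pooled CCl4 counts gave 12 opposite genes lower in the diet model and 118 higher in the CCl4 model only, and reversed Lcn2 in the CCl4 model (-0.41). The count of genes that differ between models, 1339 by counting error, was 187 and 13 with an assumed coefficient of variation of 0.2 and 0.4 in edgeR.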
